A study of Mus musculus with 12 samples.

Results

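The genes of the proteasome were followed in mouse gastrocnemius, a hindlimb muscle, with and without a muscle-specific deletion of PGC-1alpha, in young and old animals. The members were the genes whose symbol on the array begins with Psma, Psmb, Psmc, Psmd or Psme and a number, read through probe sets that name 1 gene, with the interferon-inducible subunits Psmb8 and Psmb9 left out. Each gene was represented by the probe set with the highest mean over the 12 arrays. The rule found 42 genes among the 18194 tested. Of these, 40 encode subunits, assembly chaperones or activators of the proteasome, and Psmc3ip and Psme3ip1 match by name only, being partners of a subunit and of an activator. A set of 31 genes within the 42, called constitutive subunits below, holds the core and regulatory particle genes without Psma8, Psmb10 and Psmb11, which are known from germ cells, immune cells and the thymus.

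The 4 groups each had 3 arrays. KO_old and WT_old were labelled knock-out and wild-type muscle of 24-month-old mice, and KO_young and WT_young the same genotypes at 10 weeks. The knock-out was of PGC-1alpha and muscle-specific, driven by a myogenin-cre, and all mice were of a mixed C57Bl/6N/6J/129 background. Whether the wild-type mice carried a floxed allele or the cre was not given in the sources used here. Nothing in the labels ties the 3 arrays of a group to separate animals, so a p-value here reflects array-to-array spread that may be technical.

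The proteasome is the protease that degrades proteins marked with ubiquitin. Its core is a barrel of alpha and beta rings, with the proteolytic sites on some beta subunits, and a regulatory particle caps the barrel: the base holds a ring of ATPases that unfold the substrate and push it in, and the lid removes the ubiquitin. In skeletal muscle the ubiquitin-proteasome pathway is known for the breakdown of myofibrillar protein during wasting, when subunit genes and muscle ubiquitin ligases are often induced together. Proteasome genes are also known to rise together when proteasome activity is limiting, through the transcription factor encoded by Nfe2l1.

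All values are log2 signals made by robust multi-array averaging (RMA), so a difference of 1 is a doubling, and levels of different genes were not compared. A gene was called changed at an adjusted p under 0.05 in limma, adjusted over the 18194 genes. The 12 muscle markers were all above the signal floor of 6.22, the median of the probe sets, and their summed signal lay between 535815 and 560594 in every array. Among them, Acta1 lay between 15.93 and 15.95, and 15.95 was the highest value in the data. A sum led by markers at the top of the scale can hide differences in muscle content. Ppargc1a, which encodes PGC-1alpha, was not lower in the knock-out arrays: it had 12.06, 11.84 and 12.33 in KO_old and 12.09, 11.76 and 11.51 in WT_old, and 11.14, 11.48 and 12.10 in KO_young and 10.77, 11.17 and 11.18 in WT_young. The deleted exons were not given in the sources used here, and a probe set outside them checks nothing about the deletion. In bulk muscle, fewer cells of a type and less RNA per cell cannot be told apart.

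One array stood apart for these genes before any comparison was made. KO_old 1 was the highest of the 12 arrays for 30 of the 42 members, all of them constitutive subunits. Over all genes tested, 15% were highest in that array, and 24.7% of the 2202 genes at least as bright as the dimmest constitutive subunit. The only constitutive subunit that peaked elsewhere was Psmb7, a catalytic beta subunit, which was highest in WT_old 2. KO_old 1 exceeded the mean of KO_old 2 and KO_old 3 by a median of 0.53 over the 31 constitutive subunits, with a range of 0.03 for Psmb7 to 0.94 for Psma7, against a median of -0.01 over all genes. The main results that use KO_old are therefore given with and without this array. It was singled out by the members' own values, so a smaller spread for them was built into the fits without it. Adjusted p-values of members in those fits are no separate support for a difference.

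**Figure D1:**
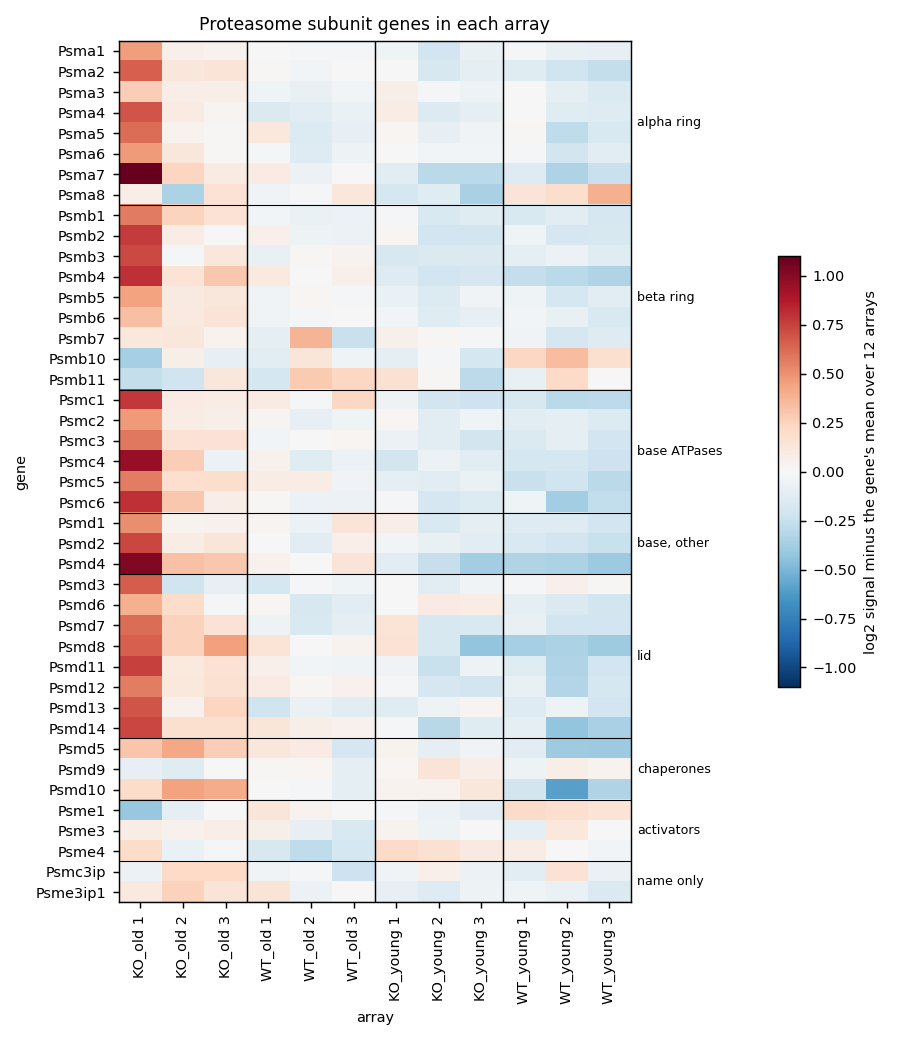
Log2 signal of each of the 42 members (rows, by role) in each of the 12 arrays (columns), minus the gene's mean over the 12 arrays. The column KO_old 1 is dark red for most ring, base and lid genes, while Psmb10 and Psme1 are below their means there.

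The same ordering appeared in the typical member of each array. The median deviation of the 42 members from their own means was 0.56, 0.11 and 0.12 in the KO_old arrays and 0.01, -0.02 and -0.04 in the WT_old arrays. It was -0.02, -0.13 and -0.10 in the KO_young arrays and -0.10, -0.17 and -0.18 in the WT_young arrays. KO_old 2 and KO_old 3 thus lay above all 9 arrays of the other groups, by much less than KO_old 1. The corresponding median over all genes stayed between -0.03 and 0.02 in every array.

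The comparison of old with young knock-out muscle asks how the proteasome genes differ with age where PGC-1alpha was labelled as deleted, and it was the only one with called members. Of the 42 members, 10 rose in KO_old relative to KO_young and none fell. Over all genes, 4.85% were called higher, 5.41% lower and 10.3% in either direction. All but 2 members lay above the floor of 6.22. When only the 11354 genes above it were tested, 987 were called higher, 1129 lower and 18.6% in either direction. That was a separate fit, so the 10 called members are not to be set against its shares. Its own count of called members is given in the last section. At an unadjusted p under 0.05, 27 members were higher and none lower, beside 12% and 12.9% of all genes. Without KO_old 1, 23 were higher and 1 lower, and the shares of all genes in that fit are not given here. The median difference over the members was 0.32, beside 0.00 over all genes, and 37 of 42 differences lay above 0, beside 49% of all genes. KO_old and KO_young did not overlap for 26 members that were higher and 1 that was lower, beside 13.8% and 14.9% of all genes. The 10 called genes came from every part of the particle, with 1 of 8 alpha ring genes, 2 of 9 beta ring genes, 2 of 6 base ATPases, 1 of 3 other base subunits, 3 of 8 lid subunits and 1 of 3 assembly chaperones. None of the 3 activator genes was called.

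In the base, Psmd4 encodes a receptor that binds ubiquitin chains on substrates, and its difference was the largest of the 42. Psmd4 had 13.85, 13.15 and 13.13 in KO_old, 12.88, 12.83 and 12.97 in WT_old, 12.71, 12.58 and 12.45 in KO_young and 12.50, 12.48 and 12.43 in WT_young. The 3 KO_old arrays were above all others, the WT_old arrays came next, and the young groups overlapped. Psmd4 was 0.79 ± 0.16 (SE) higher in KO_old than in KO_young, a 1.73-fold difference (limma adjusted p = 0.00951), and 0.56 higher without KO_old 1 (adjusted p = 0.00552).

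Among the base ATPases, which unfold substrates, Psmc5 had 13.23, 12.84 and 12.86 in KO_old, 12.74, 12.74 and 12.62 in WT_old, 12.55, 12.55 and 12.59 in KO_young and 12.41, 12.44 and 12.37 in WT_young. All 4 groups were separate, with the order KO_old, WT_old, KO_young, WT_young from high to low. Psmc5 was 0.41 ± 0.10 higher in KO_old than in KO_young (limma adjusted p = 0.0239) and 0.29 higher without KO_old 1 (adjusted p = 0.0424). Psmc3, another ATPase, had 13.80, 13.38 and 13.38 in KO_old, 13.19, 13.21 and 13.24 in WT_old, 13.16, 13.09 and 13.01 in KO_young and 13.06, 13.11 and 13.01 in WT_young. Its old groups were apart from each other and from the young arrays, which overlapped. Psmc3 was 0.43 ± 0.11 higher in KO_old than in KO_young (limma adjusted p = 0.0278) and 0.29 higher without KO_old 1 (adjusted p = 0.0471). Psmc6, the ATPase with the largest mean absolute difference, had 12.71, 12.21 and 11.99 in KO_old, 11.92, 11.85 and 11.85 in WT_old, 11.89, 11.73 and 11.76 in KO_young and 11.86, 11.53 and 11.64 in WT_young. KO_old lay above every other array, and the other 3 groups ran into each other. Its difference of 0.51 ± 0.15 between KO_old and KO_young missed the threshold (limma adjusted p = 0.0558), and it was 0.30 without KO_old 1 (adjusted p = 0.130).

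In the core, Psmb4 and Psmb1 are beta subunits without a proteolytic site. Psmb4 had 13.78, 13.13 and 13.28 in KO_old, 13.09, 12.99 and 13.04 in WT_old, 12.84, 12.77 and 12.80 in KO_young and 12.72, 12.68 and 12.65 in WT_young. As for Psmc5, all 4 groups were separate and in the same order. Psmb4 was 0.60 ± 0.13 higher in KO_old than in KO_young (limma adjusted p = 0.0157) and 0.40 higher without KO_old 1 (adjusted p = 0.0133). Psmb1 had 13.33, 13.00 and 12.92 in KO_old, 12.73, 12.68 and 12.69 in WT_old, 12.73, 12.59 and 12.63 in KO_young and 12.59, 12.63 and 12.57 in WT_young. The KO_old arrays stood above a narrow band that held the other 9. Psmb1 was 0.43 ± 0.10 higher in KO_old than in KO_young (limma adjusted p = 0.0192) and 0.31 higher without KO_old 1 (adjusted p = 0.0346). The catalytic subunits Psmb5, Psmb6 and Psmb7 were not called, with differences of 0.31, 0.28 and 0.08 (adjusted p = 0.0642, 0.0506 and 0.787), and without KO_old 1 of 0.20, 0.21 and 0.07.

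Psma7, an alpha ring gene, had 13.30, 12.43 and 12.28 in KO_old, 12.29, 12.13 and 12.19 in WT_old, 12.07, 11.90 and 11.90 in KO_young and 12.05, 11.85 and 11.95 in WT_young. KO_old 1 was far above every other array, and KO_old 3 was level with WT_old 1. Psma7 was 0.72 ± 0.20 higher in KO_old than in KO_young, a 1.64-fold difference (limma adjusted p = 0.0418), and 0.40 higher without KO_old 1 (adjusted p = 0.0320). The other 7 alpha ring genes were not called, with differences between 0.14 and 0.40.

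In the lid, Psmd8 is a structural subunit known in yeast to join last in lid assembly. Psmd8 had 13.77, 13.37 and 13.56 in KO_old, 13.26, 13.10 and 13.15 in WT_old, 13.27, 12.93 and 12.68 in KO_young and 12.74, 12.76 and 12.72 in WT_young. KO_old was the highest group, while KO_young was spread from below WT_young to the top of WT_old. Psmd8 was 0.61 ± 0.14 higher in KO_old than in KO_young (limma adjusted p = 0.0178), and 0.50 higher without KO_old 1, where it was no longer called (adjusted p = 0.0602). Psmd12, a scaffold subunit of the lid, had 13.05, 12.60 and 12.66 in KO_old, 12.58, 12.51 and 12.53 in WT_old, 12.46, 12.30 and 12.28 in KO_young and 12.40, 12.16 and 12.29 in WT_young. Both old groups were above all 6 young arrays, and KO_old 2 was just above WT_old 1. Psmd12 was 0.42 ± 0.12 higher in KO_old than in KO_young (limma adjusted p = 0.0409) and 0.28 higher without KO_old 1 (adjusted p = 0.0993). Psmd14, the deubiquitinating enzyme of the lid, was 0.51 ± 0.15 higher (adjusted p = 0.0463), and 0.33 higher without KO_old 1 (adjusted p = 0.115).

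**Figure D2:**
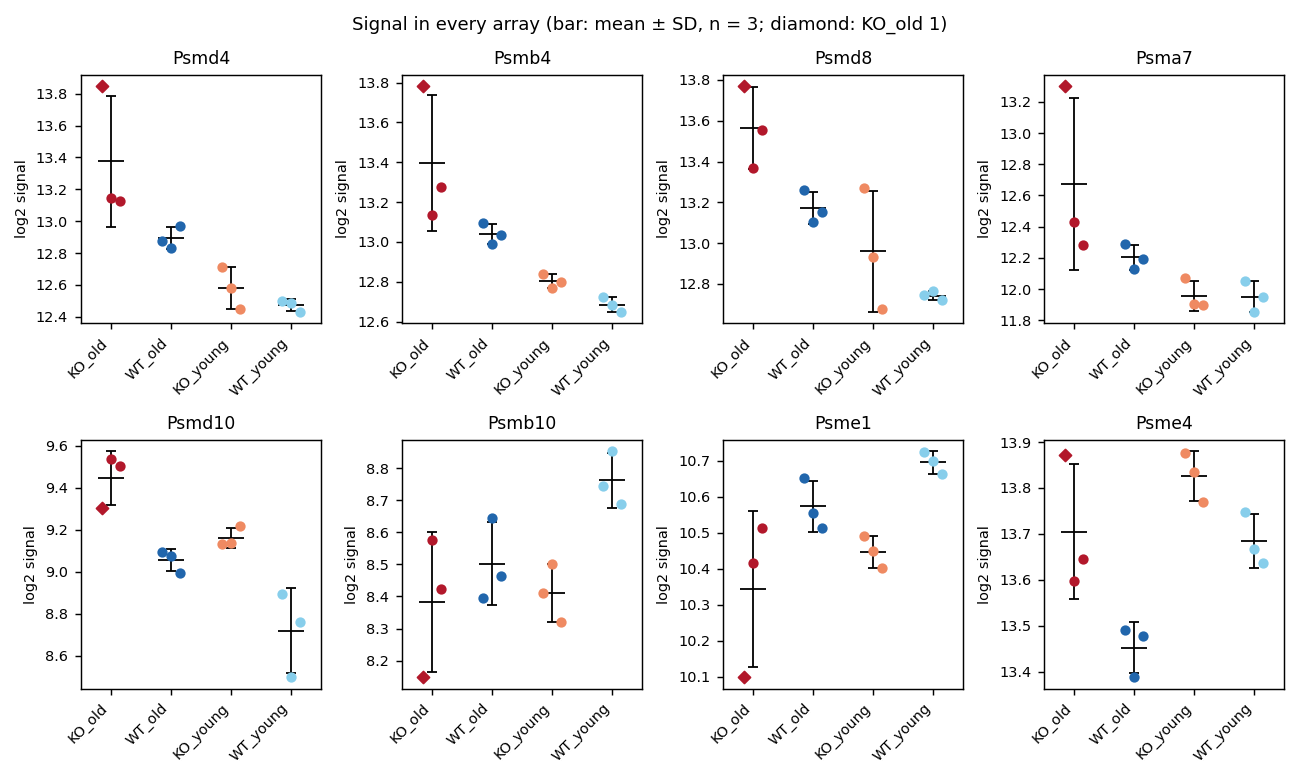
Log2 signal in every array for 8 members, with the mean ± SD of 3 arrays per group as bars and KO_old 1 as a diamond. Psmd4 and Psmb4 step down through the groups KO_old, WT_old, KO_young and WT_young, Psmd10 is lowest in WT_young, and Psmb10 and Psme1 are highest there.

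The count of 10 depended on single arrays. Without KO_old 1 it was 6: Psmd4, Psmb4, Psma7, Psmb1, Psmc5 and Psmc3, and 3.66% of all genes were called higher. The median over the members was then 0.20. That array was singled out by the members' own values, so their spread was bound to shrink in this fit. The 6 calls are therefore no separate support for a rise. Without KO_young 2 or without KO_young 3 the count was 1, which was Psmd4 in both, and the share of all genes called in either direction was 5.30% and 4.58%. It was 6 without KO_young 1, WT_young 3, WT_old 1 or WT_old 2, where 7.57% to 9.07% of all genes were called. When KO_old and KO_young alone were fitted, without the wild-type arrays in the estimate of the spread, no member passed and 3.39% of all genes did. The old and young arrays also differed in technical readings. The mean of the 18S ribosomal RNA probe sets lay between 11.70 and 12.84 in the 6 old arrays and between 13.23 and 14.17 in the 6 young ones. The 5′ minus 3′ difference of Actb, a reading of RNA integrity, lay between -0.14 and 0.05 in old and between -0.33 and -0.16 in young arrays. Their part in the age differences was not tested.

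**Figure D3:**
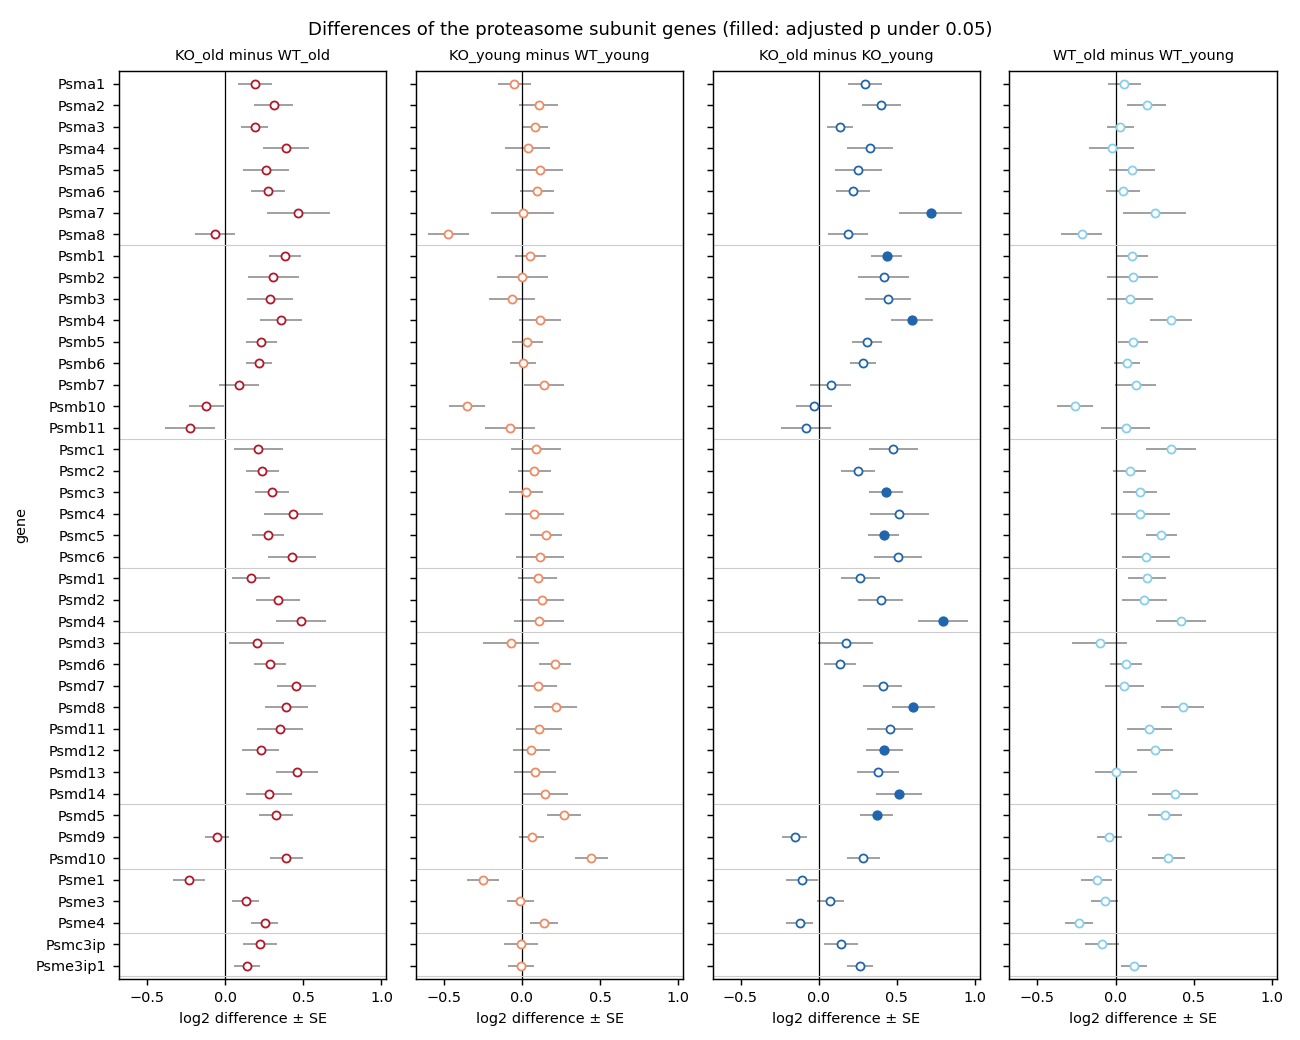
Log2 difference ± SE of each of the 42 members in the 4 comparisons, filled where the limma adjusted p was under 0.05. The 10 filled points are all in KO_old minus KO_young, and most points lie right of 0 in each of the 4 comparisons.

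The bases before the start site are shown for 3 called genes picked among those that hold an ETS-type CGGAAG element, for Psmd10 and for Psmb10. The called genes Psmc5, Psma7 and Psmd5 hold no CGGAAG in the 300-base windows described below. Psmb11, Psme3, Psme4, Psmc3ip and Psme3ip1 hold it and were not highest in KO_old 1. Whether the element goes with the peak in KO_old 1 was not tested. The sequences are RefSeq's on GRCm38.p6, each the 250 bases before the annotated start site, and they lie at chr3:95042615-95042864 (minus strand) for Psmd4, chr7:29180674-29180923 (minus) for Psmd8, chr11:107479278-107479527 (plus) for Psmd12, chrX:140956712-140956961 (minus) for Psmd10 and chr8:105938393-105938642 (minus) for Psmb10. Capitals mark matches on either strand to CGGAAG, the CCAAT box, the GGGCGG box and TGACNNNGC, the core that Nfe2l1-type factors bind.
Psmd4: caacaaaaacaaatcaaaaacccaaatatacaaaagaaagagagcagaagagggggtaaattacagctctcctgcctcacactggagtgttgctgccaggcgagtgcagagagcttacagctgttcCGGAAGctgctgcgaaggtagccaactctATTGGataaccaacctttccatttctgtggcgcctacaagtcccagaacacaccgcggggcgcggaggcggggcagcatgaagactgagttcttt
Psmd8: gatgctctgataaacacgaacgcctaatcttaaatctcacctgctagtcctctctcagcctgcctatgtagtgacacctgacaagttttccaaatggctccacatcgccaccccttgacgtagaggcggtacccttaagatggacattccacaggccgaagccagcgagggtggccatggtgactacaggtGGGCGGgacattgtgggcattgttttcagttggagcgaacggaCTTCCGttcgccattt
Psmd12: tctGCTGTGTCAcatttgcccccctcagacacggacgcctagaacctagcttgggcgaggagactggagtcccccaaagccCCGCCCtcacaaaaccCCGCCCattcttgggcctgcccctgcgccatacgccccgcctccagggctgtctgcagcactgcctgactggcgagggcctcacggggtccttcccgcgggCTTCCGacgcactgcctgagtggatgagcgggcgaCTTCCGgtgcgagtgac
Psmd10: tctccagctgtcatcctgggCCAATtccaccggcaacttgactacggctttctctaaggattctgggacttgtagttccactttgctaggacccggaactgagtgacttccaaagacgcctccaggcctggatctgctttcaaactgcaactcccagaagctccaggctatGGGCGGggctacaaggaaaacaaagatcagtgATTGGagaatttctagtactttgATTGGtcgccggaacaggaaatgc
Psmb10: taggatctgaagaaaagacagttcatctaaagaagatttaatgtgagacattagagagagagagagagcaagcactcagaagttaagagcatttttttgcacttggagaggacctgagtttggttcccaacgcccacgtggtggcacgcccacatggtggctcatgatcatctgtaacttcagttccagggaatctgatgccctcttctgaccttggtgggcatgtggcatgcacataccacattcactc
Psmd4 holds CGGAAG at 124 bases and an inverted CCAAT at 95 bases before the start. Psmd8 holds an inverted CGGAAG 16 bases before the start and Psmd12 holds 2 of them, at 17 and 52 bases. Psmd10 holds 3 CCAAT boxes and a GGGCGG box, and Psmb10 holds none of the 4 elements in this window.

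Over windows of 300 bases, 250 before to 50 after each start site, 38 promoters of 35 members were in the table, and each motif was searched on both strands. CGGAAG was in 23 of the 38 (60.5%), beside 16.9% of all 32851 promoters, and its longer form CCGGAAG, which contains it, in 15 (39.5%, beside 8.86%). GGGCGG was in 21 (55.3%, beside 35.7%). CCAAT was in 15 (39.5%, beside 37.4%), TGACNNNGC in 6 (15.8%, beside 12.4%) and TATAAA in 3 (7.89%, beside 13.6%). The palindromic site of nuclear respiratory factor 1 was in 1 (2.63%, beside 0.971%). TGACTCAGC, a case of TGACNNNGC, and TGACGTCA were in none of the 38, beside 0.454% and 1.79% of all promoters. The motifs were chosen after the array values had been seen, and a match describes letters, not binding.

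In wild-type muscle the same comparison of ages gave smaller differences. None of the 42 members was called in WT_old relative to WT_young by limma, where 3.62% of all genes were, while 8 were higher and 2 lower at an unadjusted p under 0.05, beside 7.92% and 8.66% of all genes. The median over the members was 0.11, beside 0.00 over all genes, and 33 of 42 differences lay above 0, beside 50.5%. Of the 31 constitutive subunits, 29 lay above 0, with a median of 0.13. WT_old and WT_young did not overlap for 18 members that were higher and 4 that were lower, beside 12.8% and 13.5% of all genes. The smallest p-values were those of Psmd10 (0.34 ± 0.11, adjusted p = 0.114), Psmd8 (0.43 ± 0.14, adjusted p = 0.126), Psmd5 (0.31 ± 0.11, adjusted p = 0.148) and Psmc5 (0.29 ± 0.10, adjusted p = 0.149). When KO_old 1, which is in neither group, was left out of the shared estimate of the spread, 4 members rose in WT_old: Psmd4 by 0.42 (limma adjusted p = 0.0134), Psmb4 by 0.35 (adjusted p = 0.0154), Psmc5 by 0.29 (adjusted p = 0.0271) and Psmc1, another base ATPase, by 0.35 (adjusted p = 0.0326). In that fit 2.79% of all genes were called higher. KO_old 1 had been singled out by the members' own values, so a smaller spread for them was built into this fit. The differences themselves did not change, and these calls are no separate support for a rise.

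The genotype comparison at 24 months asks what the deletion goes with in old muscle. No member was called in KO_old relative to WT_old by limma, where 1.32% of all genes were. All 31 constitutive subunits had a difference above 0, beside 46.1% of all genes, and their median was 0.29. Over the 42 members the median was 0.27, beside -0.02 over all genes. At an unadjusted p under 0.05, 24 members were higher and 1 lower, beside 9.27% and 9.99% of all genes. KO_old and WT_old did not overlap for 24 members that were higher and 1 that was lower, beside 10.6% and 13.2%. Without KO_old 1 the median over the members was 0.14, beside -0.01 over all genes. In that fit 29 of the 31 constitutive subunits lay above 0, and 7 members were higher at an unadjusted p under 0.05. The matching shares of all genes in that fit are not given here, so these counts cannot be set against them. The 5′ minus 3′ difference of Actb was -0.11, 0.05 and 0.02 in KO_old and -0.13, -0.11 and -0.14 in WT_old, KO_old 1 lying just above the highest WT_old array, and its part in the genotype differences was not tested.

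The smallest p-values in old muscle were those of Psmb1 and of the lid and chaperone genes Psmd10, Psmd7 and Psmd13. Psmb1, whose values are given above, was 0.38 ± 0.10 higher in KO_old than in WT_old (limma adjusted p = 0.0838), and 0.26 higher without KO_old 1 (adjusted p = 0.140). Psmd7, the lid partner of the deubiquitinase Psmd14, had 12.38, 12.02 and 11.92 in KO_old, 11.71, 11.60 and 11.65 in WT_old, 11.91, 11.59 and 11.59 in KO_young and 11.68, 11.56 and 11.55 in WT_young. KO_old was the highest group and the other 3 overlapped. Its difference between KO_old and WT_old was 0.46 ± 0.12 (limma adjusted p = 0.0880), and 0.32 without KO_old 1 (adjusted p = 0.177). Psmd13, another lid subunit, had 11.36, 10.72 and 10.91 in KO_old, 10.45, 10.60 and 10.56 in WT_old, 10.54, 10.61 and 10.70 in KO_young and 10.53, 10.61 and 10.46 in WT_young. Only KO_old was set apart, with KO_old 2 close to KO_young 3. Its difference was 0.46 ± 0.14 (limma adjusted p = 0.107), and 0.28 without KO_old 1 (adjusted p = 0.181). Psmd3, a lid scaffold subunit, turned with that array: it was 0.20 ± 0.18 higher in KO_old than in WT_old (limma adjusted p = 0.552), and -0.07 without KO_old 1. So did Psmc1, with 0.21 ± 0.16 (limma adjusted p = 0.478), and -0.02 without it.

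**Figure D4:**
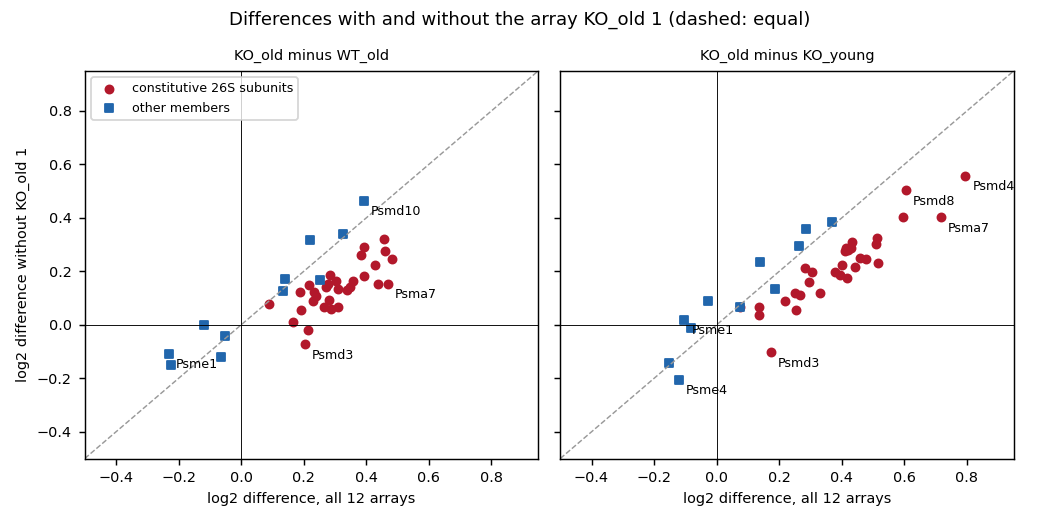
Log2 difference of each member with all 12 arrays (horizontal) and without KO_old 1 (vertical), for KO_old minus WT_old and KO_old minus KO_young. Nearly all constitutive subunits (red circles) lie below the dashed line of equality and above 0, Psmd3 crosses 0 in both panels, and Psmd10 lies above the line.

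In young muscle, the differences by genotype were mostly small. No member was called in KO_young relative to WT_young by limma, where 0.192% of all genes were, and at an unadjusted p under 0.05, 2 were higher and 3 lower, beside 4.96% and 6.3% of all genes. The median over the members was 0.08, beside -0.01 over all genes, and 32 of 42 differences lay above 0, beside 47.9% of all genes. Of the 31 constitutive subunits, 28 lay above 0, with a median of 0.09. KO_young and WT_young did not overlap for 8 members that were higher and 4 that were lower, beside 10.7% and 10.1% of all genes. The test of whether the genotype difference changed with age called no member and no gene (0% of all genes). At an unadjusted p under 0.05, limma had 2 members higher in that test and none lower, beside 2.71% and 2.74% of all genes. The median of this interaction was 0.20 over the members, with 38 of 42 above 0, beside 48.2% of all genes, and 0.07 without KO_old 1. The smallest p-values in it were those of Psmb1 (0.33), Psmd7 (0.35) and Psmd13 (0.38), each with a limma adjusted p of 0.871, and of Psma8, which was below the floor in every array. Without KO_old 1 the 3 measured differences were 0.21, 0.22 and 0.19.

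The assembly chaperones, which help build the base and leave the finished particle, did not follow KO_old 1, which differed from the mean of KO_old 2 and KO_old 3 by -0.22 for Psmd10, -0.05 for Psmd5 and -0.03 for Psmd9. Psmd10, also known as the oncoprotein gankyrin, had 9.30, 9.54 and 9.50 in KO_old, 9.10, 9.08 and 9.00 in WT_old, 9.13, 9.14 and 9.22 in KO_young and 8.90, 8.50 and 8.76 in WT_young. KO_old was the highest group and WT_young the lowest, and KO_young lay just above WT_old. Psmd10 had the smallest p of the 42 for genotype in young muscle, with 0.44 ± 0.11 (limma adjusted p = 0.131), and it differed by 0.39 ± 0.11 in old muscle (adjusted p = 0.0872) or 0.46 without KO_old 1 (adjusted p = 0.0792). Psmd5, a chaperone that holds an early base intermediate, had 9.91, 10.03 and 9.87 in KO_old, 9.73, 9.69 and 9.42 in WT_old, 9.64, 9.49 and 9.57 in KO_young and 9.48, 9.21 and 9.20 in WT_young. KO_old was above all other arrays and KO_young above WT_young. Psmd5 was 0.37 ± 0.11 higher in KO_old than in KO_young (limma adjusted p = 0.0488), and 0.39 higher without KO_old 1, where it was not called (adjusted p = 0.0843). It was 0.27 ± 0.11 higher in KO_young than in WT_young (adjusted p = 0.375). Psmd9, the third chaperone, stayed between 8.46 and 8.74 in the 12 arrays.

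The activators open the core without ubiquitin, and they went different ways. Psme4, which caps the core in the nucleus, had 13.87, 13.60 and 13.64 in KO_old, 13.49, 13.39 and 13.48 in WT_old, 13.88, 13.83 and 13.77 in KO_young and 13.75, 13.67 and 13.64 in WT_young. It was lowest in WT_old, and KO_young did not overlap WT_young. Psme4 was 0.25 ± 0.09 higher in KO_old than in WT_old (limma adjusted p = 0.156), or 0.17 without KO_old 1, and differed by -0.23 ± 0.09 between WT_old and WT_young (adjusted p = 0.195), so neither was called. Psme1, a subunit of the interferon-inducible activator, had 10.10, 10.42 and 10.51 in KO_old, 10.65, 10.56 and 10.51 in WT_old, 10.49, 10.45 and 10.40 in KO_young and 10.73, 10.70 and 10.66 in WT_young. Each knock-out group lay below the wild-type group of its age, by a narrow margin in old muscle, and KO_old 1 was the lowest of the 12 arrays. Its difference was -0.23 ± 0.10 in old muscle (limma adjusted p = 0.242), -0.11 without KO_old 1 (adjusted p = 0.493), and -0.25 ± 0.10 in young muscle (adjusted p = 0.384). Psme3, which encodes the nuclear activator, stayed between 9.65 and 9.93. Psme2, the partner of Psme1, is not a member because its probe set also names Psme2b. That shared probe set had 10.63, 10.83 and 10.87 in KO_old, 10.63, 10.57 and 10.55 in WT_old, 10.56, 10.62 and 10.60 in KO_young and 10.61, 10.45 and 10.52 in WT_young.

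The subunit of the immunoproteasome among the members, Psmb10, replaces Psmb7 in the beta ring when cells respond to interferon. Psmb10 had 8.15, 8.58 and 8.42 in KO_old, 8.40, 8.65 and 8.46 in WT_old, 8.41, 8.50 and 8.32 in KO_young and 8.74, 8.85 and 8.69 in WT_young. WT_young lay above all 9 other arrays, the other groups overlapped, and KO_old 1 was the lowest. Its difference was -0.35 ± 0.11 between KO_young and WT_young (limma adjusted p = 0.279), -0.12 ± 0.11 between KO_old and WT_old (adjusted p = 0.591, with a difference of -0.0019 without KO_old 1) and -0.26 ± 0.11 between WT_old and WT_young (adjusted p = 0.277). Its partner Psmb8 had 7.79, 7.79 and 7.74 in KO_old, 7.59, 7.54 and 7.60 in WT_old, 7.61, 7.73 and 7.46 in KO_young and 8.15, 7.49 and 7.52 in WT_young. Psmb9 had 7.57, 7.48 and 7.58 in KO_old, 7.19, 7.43 and 7.45 in WT_old, 7.24, 7.40 and 7.16 in KO_young and 8.05, 7.50 and 7.21 in WT_young. Both were higher in KO_old than in WT_old in every array and highest in WT_young 1. Of Psmb8, Psmb9 and the peptide transporter genes Tap1 and Tap2, none of 4 was called in any comparison. Psmb9 differed by -0.32 between KO_young and WT_young (limma adjusted p = 0.509) and by 0.28 between KO_old and KO_young (adjusted p = 0.349). Psmb8 differed by 0.19 between KO_old and WT_old (adjusted p = 0.492) and by -0.14 between WT_old and WT_young (adjusted p = 0.719).

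Psma8, a spermatogenic alpha subunit, and Psmb11, the thymic beta subunit, were below the floor of 6.22 in every array. Psma8 had 4.74, 4.31 and 4.83 in KO_old, 4.63, 4.66 and 4.79 in WT_old, 4.47, 4.54 and 4.31 in KO_young and 4.81, 4.86 and 5.06 in WT_young, so no fold is given, although its p for genotype in young muscle was among the smallest 4 (limma adjusted p = 0.210). Psmb11 lay between 4.71 and 5.28. Of the genes that match by name only, Psme3ip1 had 10.25, 10.40 and 10.28 in KO_old, 10.28, 10.08 and 10.14 in WT_old, 10.05, 10.00 and 10.09 in KO_young and 10.09, 10.07 and 9.98 in WT_young. Its KO_old arrays overlapped WT_old and lay above KO_young (0.26 ± 0.08, limma adjusted p = 0.0625), also without KO_old 1 (0.30, adjusted p = 0.0681). Psmc3ip, which acts in meiotic recombination, stayed between 7.10 and 7.55.

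Of the 42 members, 22 had more than 1 probe set naming that gene alone. These added 46 probe sets, of which 29 were above the floor. The sign of the difference matched that of the probe set used for 24 of the 29 in KO_old minus KO_young, 28 in KO_old minus WT_old, 23 in WT_old minus WT_young and 18 in KO_young minus WT_young. Of the 10 called members, 4 had other probe sets above the floor, and all 6 of these had the same sign.

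Lists of genes that act with the proteasome are set beside the shares of all genes called in KO_old relative to KO_young, which were 4.85% higher and 5.41% lower. Of 13 measured assembly and bound factors, 2 rose and 1 fell in KO_old relative to KO_young, with a median of 0.05, or 0.10 without KO_old 1. They were Pomp, the maturation factor of the core (0.35, limma adjusted p = 0.0203), Psmg4, a core assembly chaperone (0.41, adjusted p = 0.0374), and Psmg3, another (-0.27, adjusted p = 0.0413). Without KO_old 1, Psmg4 was called (0.49, adjusted p = 0.0302), and Pomp and Psmg3 were not (adjusted p = 0.0544 and 0.0806). None of the 13 was called in the other comparisons, where the smallest p-values were those of Pomp (0.29) and Uchl5, a deubiquitinase (0.28) in old muscle, Usp14, a deubiquitinase (0.38) and Uchl5 (0.16) in young muscle, and Usp14 (0.54) and Psmg4 (0.30) between WT_old and WT_young. Leaving KO_old 1 out of the shared spread called 1 of the 13, higher in WT_old than in WT_young, where 2.79% of all genes were called higher. This list also holds Sem1, a lid subunit whose symbol the rule does not match. Sem1 had 12.04, 12.14 and 12.23 in KO_old and 12.05, 12.12 and 12.11 in WT_old. In young muscle it had 12.28, 12.36 and 12.36 in KO_young and 12.30, 12.27 and 12.29 in WT_young. Both old groups lay below both young groups, and Sem1 was not called with all arrays.

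Of 13 measured regulators of proteasome genes, 1 rose and 1 fell in KO_old relative to KO_young, where 4.85% and 5.41% of all genes did, with a median of 0.19, or 0.07 without KO_old 1. Nfe2l1, which encodes the factor that induces subunit genes, had 12.55, 12.26 and 12.36 in KO_old, 12.34, 12.40 and 12.38 in WT_old, 12.07, 12.10 and 11.90 in KO_young and 12.04, 12.19 and 12.15 in WT_young. The old groups overlapped and lay above both young groups. Nfe2l1 rose by 0.37 ± 0.09 in KO_old relative to KO_young (limma adjusted p = 0.0286), or 0.29 without KO_old 1 (adjusted p = 0.0791), and differed by 0.25 ± 0.09 between WT_old and WT_young (adjusted p = 0.196) and by 0.02 between KO_old and WT_old (adjusted p = 0.934), or -0.06 without KO_old 1. Nfyc, a subunit of the factor that binds CCAAT boxes, had 10.05, 10.20 and 10.23 in KO_old, 10.39, 10.41 and 10.37 in WT_old, 10.46, 10.53 and 10.60 in KO_young and 10.60, 10.55 and 10.53 in WT_young. KO_old was the lowest group, WT_old came next, and the young groups overlapped. Nfyc fell by 0.37 ± 0.08 in KO_old relative to KO_young (limma adjusted p = 0.0121), and by 0.31 without KO_old 1 (adjusted p = 0.0304). None of the 13 was called elsewhere, where the smallest p-values were those of Nfyc (-0.23) and Foxo3, a forkhead factor (0.39, or 0.11 without KO_old 1) in old muscle, Mafg, a small Maf partner (0.22) and Nfe2l1 (-0.10) in young muscle, and Keap1, an inhibitor of a related factor (-0.38) and Nfe2l1 between WT_old and WT_young. Without KO_old 1, 2 of the 13 fell and none rose in KO_old relative to KO_young, where 669 of all 18194 genes were called lower and 666 higher. In the same fit 2 of the 13 fell in WT_old relative to WT_young, where 585 of all 18194 genes were called lower.

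Of 15 measured ubiquitin and shuttle genes, 2 rose and 1 fell in KO_old relative to KO_young, where 4.85% and 5.41% of all genes did, with a median of 0.08, or 0.03 without KO_old 1. Sqstm1, the ubiquitin receptor of autophagy, had 13.82, 13.26 and 13.39 in KO_old, 13.24, 13.29 and 13.26 in WT_old, 12.83, 12.60 and 12.57 in KO_young and 12.62, 12.50 and 12.39 in WT_young. Both old groups were above both young groups, with KO_old 2 within WT_old. Sqstm1 rose by 0.82 ± 0.13 in KO_old relative to KO_young (limma adjusted p = 0.00329), or 0.66 without KO_old 1 (adjusted p = 0.00466), and by 0.76 ± 0.13 in WT_old relative to WT_young (adjusted p = 0.00990), the only gene of this list called in wild-type muscle with all arrays. Without KO_old 1, 3 of the 15 rose in WT_old relative to WT_young, where 2.79% of all genes were called higher. Nsfl1c, a cofactor of the p97 unfoldase, rose by 0.56 (adjusted p = 0.0119), and Ubqln4, a shuttle, fell by 0.49 (adjusted p = 0.00774) in KO_old relative to KO_young, and without KO_old 1 Nsfl1c rose by 0.40 (adjusted p = 0.0145) and Ubqln4 fell by 0.45 (adjusted p = 0.0240). None was called for genotype, where Rad23b (0.43, or 0.23 without KO_old 1) and Zfand2b (0.30) in old muscle and Uba6 (0.23) and Zfand2b (0.20) in young muscle had the smallest p-values.

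Of 18 measured muscle ubiquitin ligases and conjugating enzymes, only Fbxo21, a substrate receptor of a ligase, was called, 0.73 ± 0.16 higher in KO_old than in KO_young (limma adjusted p = 0.0149), or 0.54 without KO_old 1 (adjusted p = 0.0351). Over all genes, 4.85% were called higher. The median of the 18 was 0.10, and -0.00086 without KO_old 1. The atrophy ligases followed KO_old 1: Fbxo32 had 14.52, 13.18 and 13.24 in KO_old, 13.50, 13.30 and 13.82 in WT_old, 13.37, 12.89 and 12.25 in KO_young and 12.82, 12.98 and 13.02 in WT_young. Trim63 had 14.40, 13.69 and 13.74 in KO_old, 13.77, 13.58 and 13.66 in WT_old, 13.67, 13.30 and 13.28 in KO_young and 13.43, 13.14 and 13.17 in WT_young. Both were highest in KO_old 1, and the other 2 KO_old arrays were within or next to the range of WT_old. They were chosen after their values were seen and were not called in KO_old relative to KO_young (0.81 and 0.53, limma adjusted p = 0.146 and 0.0762), nor without KO_old 1 (0.38 and 0.30, adjusted p = 0.439 and 0.203). For genotype the smallest p-values were those of Nedd4 (0.40) and Ube2j1 (0.26, or 0.15 without KO_old 1) in old muscle and Nedd4 (0.29) and Mdm2 (0.21) in young muscle, and Cblb (0.47) and Ube2b (0.24) had them between WT_old and WT_young.

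Some markers of other cell types differed in KO_old 1 or in the old knock-out group, and others did not. The summed linear signal of 6 adipocyte markers, 5 of them above the floor, was 44734, 26648 and 11102 in KO_old, against 10420 to 13521 in WT_old, so KO_old 3 lay within WT_old. That of 12 macrophage markers, with Cd14 and Itgam below the floor, was 5831 to 6624 in KO_old, against 2621 to 5463 in WT_old. That of 8 fibroblast and matrix markers was 11166 in KO_old 1, the lowest of the 12 arrays, beside 23008 and 27262 in KO_old 2 and KO_old 3. That of 10 interferon markers was 6981 to 8001 in KO_old, against 5989 to 6445 in WT_old. The muscle marker sum was lowest in KO_old 1, at 535815. In young muscle the adipocyte sum was 10787 to 14441 in KO_young and 14127 to 18206 in WT_young, the macrophage sum 3213 to 5299 and 3001 to 4174, and the interferon sum 5391 to 6084 and 4885 to 6771. The fibroblast and matrix sum was 16824 to 23360 in WT_old, 36318 to 69562 in KO_young and 32556 to 46628 in WT_young, so it was lower in all 6 old arrays. The lymphocyte sum was 736 to 1061 in KO_old and 735 to 845 in WT_old, with 6 of its 10 markers below the floor, and 2060 in WT_young 1, where Psmb8 and Psmb9 were highest. The endothelial sum, of 8 markers, was 1967 to 2419 in KO_old and 2106 to 2214 in WT_old, and the Schwann cell sum, of 4 markers with S100b below the floor, 2178 to 3670 and 2332 to 3494, so neither separated these groups. The part of these cells in the proteasome differences was not tested.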

How the data were processed

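RNA of gastrocnemius was measured on 12 Affymetrix arrays, 3 in each of 4 groups. The log2 signals were used as deposited by the authors, after RMA in affy (version not given) per the submitters' processing notes. Of 45101 probe sets, 34958 named 1 gene, and each of 18194 genes was tested on the one with the highest mean. Means of the 4 groups were fitted in limma 3.58.1 under R 4.3.3 (lmFit, eBayes, 8 residual and 4.15 prior degrees of freedom), with Benjamini-Hochberg adjustment over all 18194 genes and a threshold of 0.05. The number of arrays limits the precision. The procedure was tested on simulated data. Symbols came from the platform annotation, and chromosomes and promoters from RefSeq (GRCm38.p6).

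Members and lists were chosen with earlier results of these data known. Values in every array are given for members past the threshold (the 8 smallest p-values where more passed), otherwise the 4 smallest p-values of a comparison, and for the member of each role with the largest mean absolute difference. From each list, called genes are named (at most 6), otherwise the 2 smallest p-values. Psme1, Psmd3, Psmc1, Psmd14 and the catalytic subunits were named after their values were seen. Alternatives were other normalizations, probe set rules, filters, variance models, weights, thresholds and leaving out arrays.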

Additional observations from a re-analysis of the deposited data

How the results depend on the processing

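No paired analysis was possible because the labels give no replicate numbers, and the numbers used here only name the arrays. The median over the members kept its sign in each comparison under the alternatives run. Psmd3 and Psmc1 in old muscle turned sign without KO_old 1, as did the median of the ubiquitin ligases in KO_old minus KO_young (-0.00086) and that of the regulators in KO_old minus WT_old (0.08 with all arrays and -0.011 without), and the interaction medians of the ligases and of the ubiquitin and shuttle genes. The percentages after counts are the share of all genes called in either direction under that setting. The count of called members in KO_old minus KO_young, 10 in all arrays (10.3%), was 16 with brighter genes only (40 members, 18.6%), 17 with trended and robust variances (11.4%), 0 with only the groups compared (3.39%), 20 at an adjusted p of 0.10 (16.2%) and 5 without both KO_old 1 and WT_young 1 (7.37%). Leaving out single arrays gave 1 to 15. In KO_old minus WT_old the count was 1 with trended and robust variances (2.14%) and 3 at an adjusted p of 0.10 (4.40%), and 0 to 3 without single arrays. In WT_old minus WT_young it was 8 with array weights (13.5%), 3 with only the groups compared (4.45%) and 5 without both arrays (4.49%), and 0 to 4 without single arrays. In KO_young minus WT_young it was 2 with array weights (5.60%), 1 without both arrays (1.19%) and 0 to 0 without single arrays, and in the interaction 0 to 0. The setting with only the groups compared was not run for the interaction. The median over the members without single arrays was 0.04 to 0.10 for genotype in young muscle, 0.14 to 0.36 in old muscle, 0.09 to 0.14 for age in wild-type, 0.20 to 0.39 for age in knock-out and 0.07 to 0.25 for the interaction. Without both KO_old 1 and WT_young 1, an alternative chosen after seeing the data, it was 0.14 in old muscle and 0.023 for the interaction. The cause of these shifts was not tested.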
